A study of Rattus norvegicus with 31 samples.

Results

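The Srsf, Hnrnp and Sf3 genes encode core regulators of pre-mRNA splicing, and their RNA was followed here in the kidney cortex and colon of normal control rats, rats on a high salt diet, and rats on high salt with calcitriol. Members were taken as every row of the gene count table whose symbol began with Srsf and a digit, with Hnrnp, or with Sf3a or Sf3b and a digit. This gave 40 of 20207 genes, of which 12 were Srsf, 19 Hnrnp and 9 Sf3 genes. No measured value picked an individual gene, but the 3 families were chosen by name after earlier fold changes and tests between these groups had been seen. Their counts are therefore a description and not independent evidence of a direction.

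Splicing removes introns from a new transcript through the spliceosome, a large complex of small nuclear RNAs and proteins. SR proteins, encoded by the Srsf genes, bind exonic enhancers and mostly promote exon inclusion, and heterogeneous nuclear ribonucleoproteins (hnRNPs) coat nascent RNA and often silence nearby splice sites. The SF3a and SF3b subunits belong to the U2 small nuclear ribonucleoprotein, which recognises the intron's branch point. Many genes of these families also control their own RNA level by splicing in exons that mark the transcript for nonsense-mediated decay.

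The study set 3 groups of rats (Rattus norvegicus) side by side in each tissue: NC, the normal control; HS, the high salt model; and CAL, which received the high salt diet together with calcitriol, the active hormonal form of vitamin D. There were 5 NC, 4 HS and 6 CAL libraries of kidney cortex, with 5, 5 and 6 of colon. The labels give no strain, age, sex, salt content, calcitriol dose or treatment time, and do not say that libraries of a group came from separate animals, so p-values measure only the spread between libraries. HS and CAL both carried the salt diet, so CAL against HS compares added calcitriol on that diet, and no group received calcitriol alone.

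Total counts ran from 289529 to 2265164 per library in cortex and from 267976 to 918820 in colon, which is shallow for bulk RNA sequencing. Levels are given below as CPM, a count relative to its library's total, scaled by the trimmed mean of M-values (TMM). Tissue labels fitted their markers: proximal tubule genes summed to between 15047 and 20667 CPM in cortex libraries and to between 4.54 and 177 in colon libraries. Colon epithelium genes summed to 166 to 249 CPM in cortex and 13997 to 25886 in colon. The contrast was smaller for goblet cell genes, at 1636 to 7474 CPM in cortex and 16308 to 31925 in colon. Replicates 3 and 4 of colon HS stood apart with leukocyte markers summing to 18686 and 15749 CPM, against 1195 to 6567 in the other NC and HS colon libraries. Erythrocyte genes summed to between 1039 and 1915 CPM in cortex HS, 3932 to 20347 in NC and 3613 to 6958 in CAL. In bulk tissue, fewer cells of a type and less RNA per cell cannot be told apart.

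Enough counts for testing were present for 32 members in cortex (10 Srsf, 14 Hnrnp, 8 Sf3) and 34 in colon (10 Srsf, 16 Hnrnp, 8 Sf3). The 6 members too low in both tissues were Hnrnpul2, Hnrnpab, Hnrnph3, Srsf12, Sf3a2 and Srsf8. Srsf8 had a count of 0 in every library and Hnrnpab only 14 counts over all 31 libraries. Hnrnpa3 and Hnrnpc passed in colon and not in cortex, where their median counts per library were 6 and 7. A gene's count covers all its isoforms, so changes in exon inclusion are not measured here. RefSeq lists 105 pseudogenes named after 17 of the 40 members, led by Hnrnpa1 with 50 and including 7 for Hnrnpk and 3 each for Srsf10 and Hnrnph1. How reads shared with such copies were counted is not given in the sources used here, and those members' counts are uncertain to that extent.

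The upstream sequences of the 2 members past the threshold in cortex whose RefSeq windows begin outside the annotated gene are shown first, since Srsf10 and Srsf2 carry part of the high salt result below. They come from RefSeq on the GRCr8 build, while the study's counts used Rnor_6.0, and each run stops at the annotated gene start. The Srsf10 stretch lies on the plus strand at chr5:153372066-153372306 and the Srsf2 stretch on the minus strand at chr10:102554201-102554391. Capitals mark matches on either strand to CCAAT (the NF-Y motif), GGGCGG (Sp and KLF factors), CCGGAA (ETS factors) and the NRF1 motif (GCGC and TGCGC with 1 base between them), and overlapping matches run together.
Srsf10: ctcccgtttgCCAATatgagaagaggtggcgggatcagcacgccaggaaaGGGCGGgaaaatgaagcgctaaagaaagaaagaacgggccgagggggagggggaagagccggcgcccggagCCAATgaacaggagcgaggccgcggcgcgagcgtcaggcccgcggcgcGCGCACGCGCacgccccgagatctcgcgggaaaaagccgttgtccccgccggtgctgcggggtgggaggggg
Srsf2: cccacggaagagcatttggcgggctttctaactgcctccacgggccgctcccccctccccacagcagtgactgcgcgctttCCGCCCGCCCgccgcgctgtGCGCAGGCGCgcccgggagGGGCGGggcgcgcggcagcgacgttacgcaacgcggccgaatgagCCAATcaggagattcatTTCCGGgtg
The Srsf10 stretch holds 2 CCAAT matches, 1 GGGCGG and 1 NRF1 motif, and the Srsf2 stretch holds 1, 3 and 1 of these with 1 CCGGAA. Over the 250 bases before each RefSeq transcript start, 38 of the 40 members gave 42 windows. CCAAT was in 52.4% of them and in 34% of all 33469 windows, GGGCGG in 66.7% and 30.5%, CCGGAA in 42.9% and 12.6%, and the NRF1 motif in 19% and 3.75%. The windows of all genes were not limited to genes expressed in these tissues, so the shares do not set the members against expressed genes alone. Of the other called members, Hnrnpk had no match to these motifs, in a window inside its annotated gene. The Srsf1 window held 2 CCAAT and 2 NRF1 matches and no GGGCGG or CCGGAA. A match describes the letters and is not a measured binding site.

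High salt against control in the kidney cortex addressed how the diet bears on the organ that excretes salt. Srsf1, Srsf10, Srsf2, Hnrnpk and Hnrnph1 rose, by 1.41-fold to 1.94-fold, and no member fell. These 5 of 32 tested members were called at an adjusted p under 0.05, all higher, where 7.35% of the 7524 genes tested in cortex were called higher, 3.69% lower and 11% in either direction. By family the calls were 3 of 10 Srsf, 2 of 14 Hnrnp and 0 of 8 Sf3 genes. All p-values are from edgeR's quasi-likelihood test with Benjamini-Hochberg adjustment over every gene tested.

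Srsf1, the founding SR protein, which acts in constitutive and regulated splicing, had levels of 73.7, 90.9, 75.6, 61.1 and 75.1 CPM in the NC cortex libraries and of 142, 114, 94.7 and 144 in HS. Every HS library was above every NC library, although the lowest HS value was close to the highest NC value. The log2 fold change was 0.72 (SE 0.17, adjusted p = 0.0113), a 1.65-fold rise. In CAL the level ran from 98.7 to 155 CPM with a median of 120, so all 6 CAL libraries were also above every NC library.

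Srsf10 encodes an SR protein known to act as a splicing repressor when dephosphorylated. It was at 18.4, 32.3, 30.6, 23.7 and 13.3 CPM in NC and at 62.1, 45.8, 35.1 and 44.2 in HS. The groups did not overlap, but counts were low, from 8 to 38 reads per library in these 2 groups. The log2 fold change was 0.96 (SE 0.26, adjusted p = 0.0221), and in CAL the level ran from 19.2 to 36.5 CPM with a median of 27.3. Without HS replicate 1 the adjusted p was 0.0917, without HS replicate 2 it was 0.0559, and with all libraries thinned to the shallowest it was 0.280 at a log2 fold change of 0.58.

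Srsf2 (SC35), an SR protein also linked to transcription elongation, was at 95.0, 131, 157, 101 and 142 CPM in NC and at 208, 194, 214 and 134 in HS. HS replicate 4 lay within the NC range, so the groups overlapped. The log2 fold change was 0.56 (SE 0.17, adjusted p = 0.0319). This call was the least stable of the 5: it was lost without any 1 of HS replicates 1, 2 and 3 or NC replicates 1 and 4, with adjusted p from 0.0732 to 0.113. It was also lost after thinning (adjusted p = 0.144) and with a filter of 1 CPM in at least 4 libraries (adjusted p = 0.0543). CAL libraries ran from 115 to 151 CPM with a median of 128.

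Hnrnpk, which binds poly-C stretches and acts in splicing, transcription and translation, had 329, 357, 268, 302 and 295 CPM in NC and 386, 479, 449 and 440.4 in HS. All HS libraries were above all NC libraries, and counts were high, from 128 to 420 reads. The log2 fold change was 0.50 (SE 0.13, adjusted p = 0.0164). CAL ran from 259 to 394 CPM with a median of 354. Without HS replicate 2 the adjusted p was 0.0594, and after thinning it was 0.111.

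Hnrnph1, a binder of G-rich runs in exons and introns, was at 52.5, 54.4, 54.0, 29.6 and 53.4 CPM in NC and at 70.9, 83.9, 119 and 72.8 in HS. NC replicate 4 lay below the other NC libraries, which ran from 52.5 to 54.4 CPM, and all HS libraries were above every NC library. The log2 fold change was 0.76 (SE 0.21, adjusted p = 0.0240). The adjusted p was 0.0563 without NC replicate 4, the low library, 0.0621 without HS replicate 2 and 0.0684 without HS replicate 3. CAL ran from 45.9 to 84.5 CPM with a median of 48.6.

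**Figure D1:**
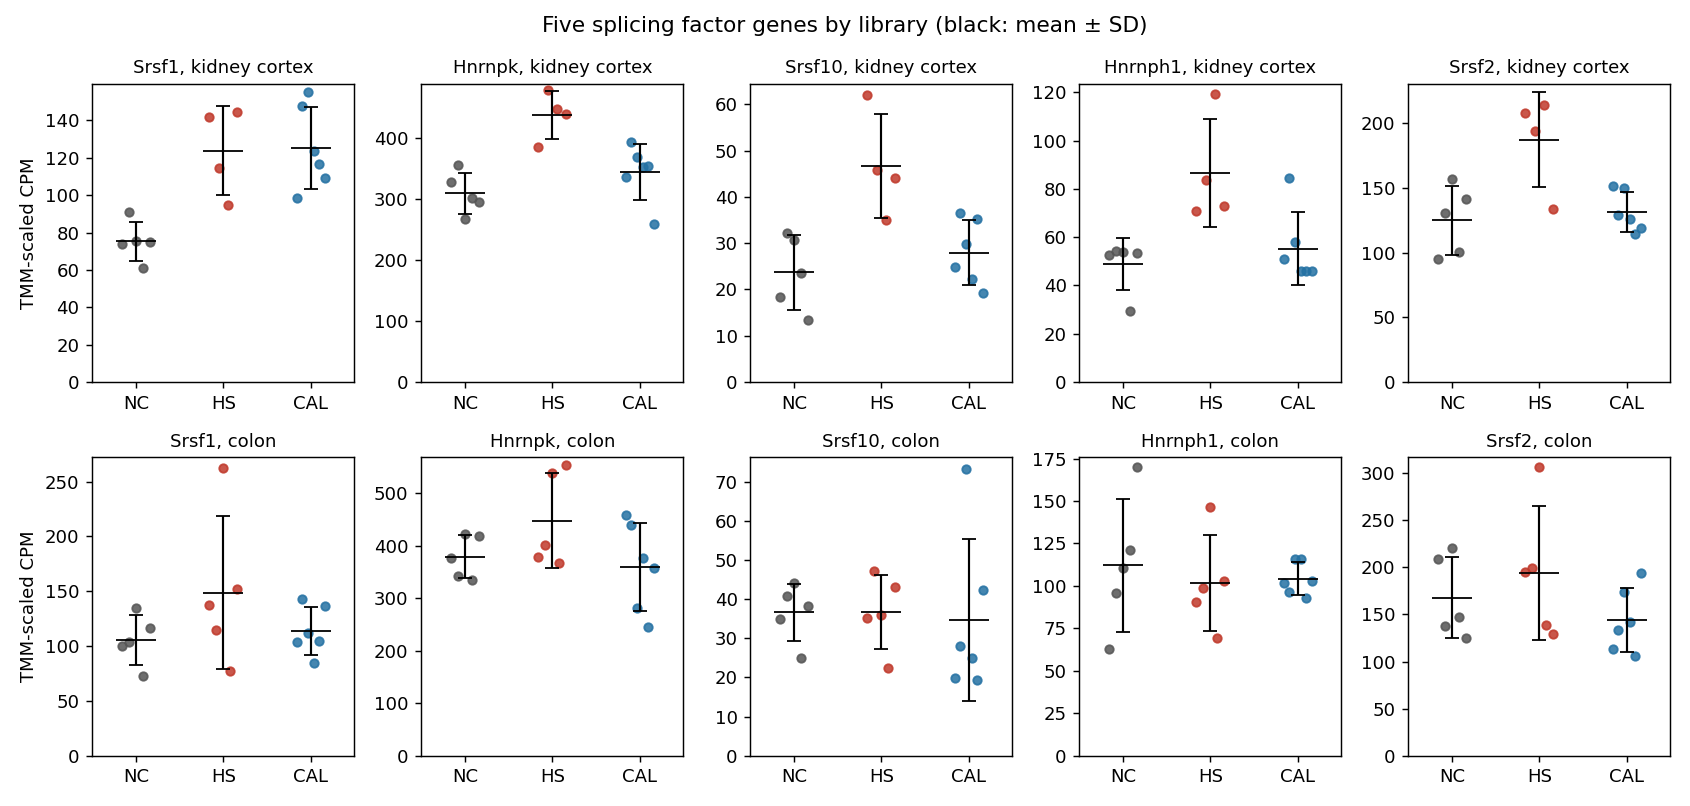
TMM-scaled CPM of Srsf1, Hnrnpk, Srsf10, Hnrnph1 and Srsf2 in each library of kidney cortex (top) and colon (bottom), by group, with 1 point per library and the mean ± SD in black. In cortex the HS points of all but Srsf2 lie above all NC points, and Srsf1 stays high in CAL, while in colon the 3 groups overlap for each gene.

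Groups did not overlap for 4 of the 32 members, the called ones other than Srsf2, a share no higher than the 13.1% of all genes tested. The other 27 members ranged from -0.40 to 0.49 on the log2 scale. Nearest to the threshold were Sf3b2, an SF3b subunit near the branch point, at -0.39 (adjusted p = 0.11), and Hnrnpll, a regulator of exon choice known from lymphocytes, at 0.49 (adjusted p = 0.111). Over the tested members 23 of 32 fold changes were positive, where 49.2% of all genes' were, and the median was 0.23 beside -0.01 over all genes. With a library left out that median ran from 0.07 to 0.26. The lowest was without HS replicate 1, where 22 of 33 tested members were positive. The family medians were 0.28 for Srsf, 0.23 for Hnrnp and -0.05 for Sf3. Sf3b1, the large SF3b subunit that holds the branch site, was at 0.24 (adjusted p = 0.293), and Hnrnpa1, a classical silencer of exons, at 0.27 (adjusted p = 0.591).

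Summed over all 40 members, the level was 2788 ± 111 CPM in NC (SD, n = 5), 3222 ± 108 in HS (n = 4) and 2854 ± 85.6 in CAL (n = 6). Each HS library, from 3148 to 3378 CPM, was above every NC library (2628 to 2906) and every CAL library (2746 to 2972). Summed Hnrnp genes had the same order, at 1489.6 to 1604 CPM in HS, 1277 to 1388 in NC and 1166 to 1399 in CAL. Summed Srsf genes were at 843 to 1064 in HS and 624.9 to 772 in NC without overlap, and at 754 to 888 in CAL, overlapping both. Summed Sf3 genes overlapped in all 3 groups, at 653 to 825 CPM in HS, 672 to 856 in NC and 622 to 827 in CAL. The order was not particular to the members. Summed Prp19 complex and catalytic step genes, a splicing list outside them, were at 1082 to 1125 CPM in HS, 950 to 1053 in NC and 848 to 1038 in CAL. No other splicing list read below had HS sums apart from both other groups. The sums are a description, since a few abundant genes set them, and they carry no test.

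**Figure D2:**
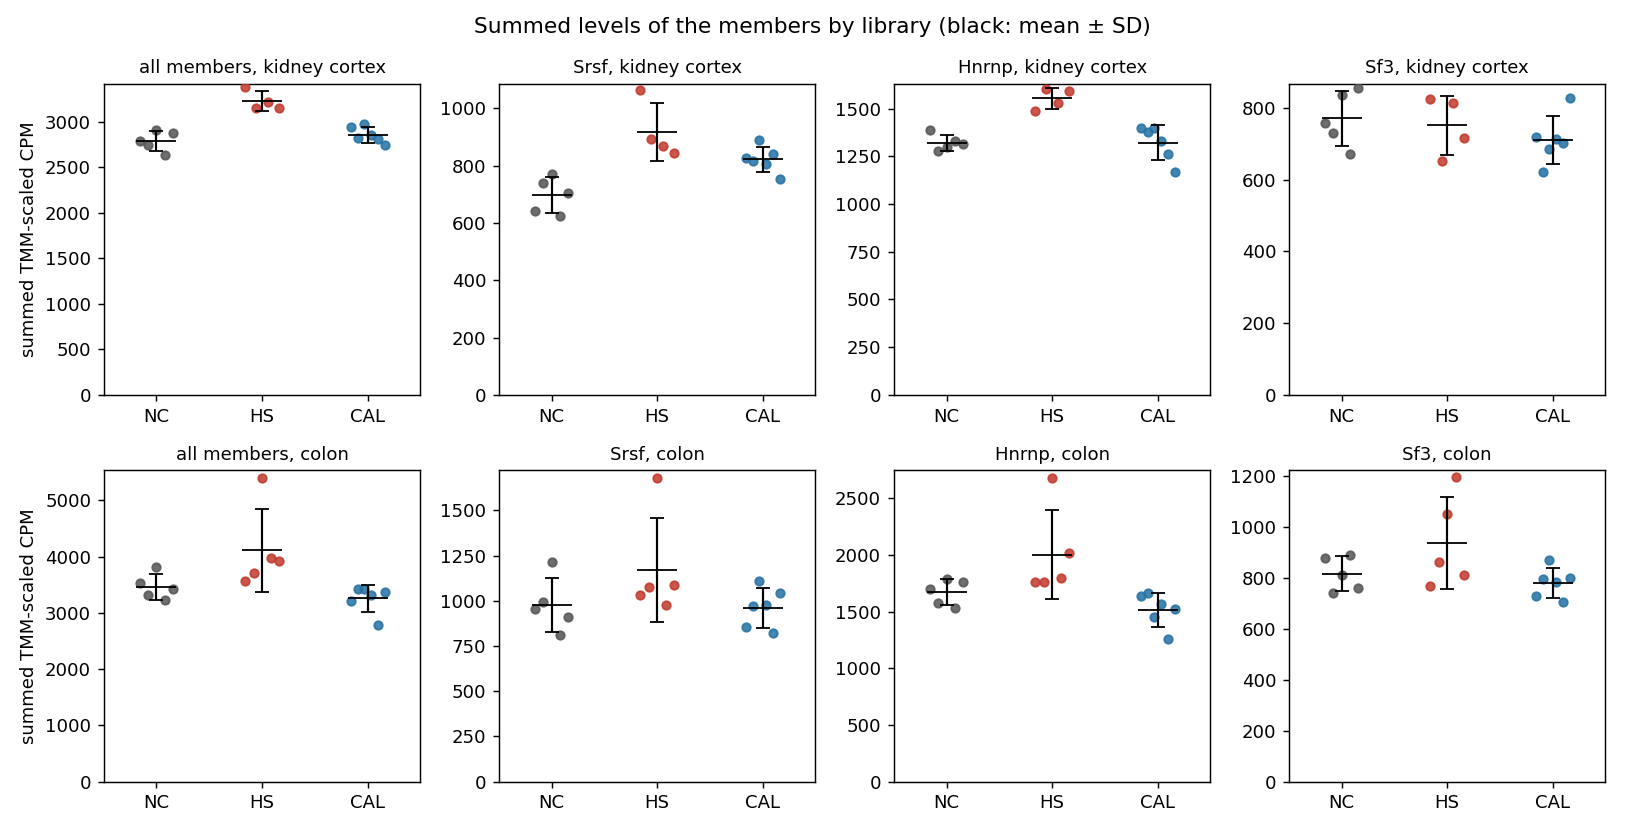
Summed TMM-scaled CPM of all 40 members and of each family in every library of kidney cortex (top) and colon (bottom), by group, with the mean ± SD in black. In cortex the HS sums of all members and of Hnrnp genes lie above those of the other 2 groups, and in colon HS replicate 3 is far above the rest for Srsf and Hnrnp genes.

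Erythrocyte genes moved with the cortex groups, and 6 of 7 tested fell in HS. With haemoglobin genes taken out of the table, 5 members were again called and the members' median was 0.23. Proliferation genes summed to 250 to 382 CPM in HS and 225 to 289 in NC, with 0 of 5 tested called. Immediate early and heat shock genes summed to 1444 to 1805 CPM in HS and 1443 to 1679 in NC. Taking haemoglobin rows out leaves the mix of cells in each library unchanged. The part of erythrocytes, proliferation and stress in the result was not tested.

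The wider splicing machinery was read from lists of 173 other genes, of which 129 were tested in cortex. In HS 9 of the 129 rose, near the 7.35% of all tested genes called higher, and 2 fell, below the 3.69% called lower. Their median log2 fold change was 0.02 beside -0.01 over all genes. Rbm3, a cold-inducible RNA-binding protein, rose by 0.998 (adjusted p = 0.00393), from 45.6 to 93.7 CPM. Among 19 other splicing regulators, 3 rose: the RNA helicase Ddx5 by 0.65 (adjusted p = 0.00584), the muscleblind protein Mbnl2 by 0.64 (adjusted p = 0.0207) and the nuclear matrix protein Matr3 by 0.90 (adjusted p = 0.0446). Ptbp1, the polypyrimidine tract binder also known as hnRNP I, fell by 0.55 (adjusted p = 0.0484), and it is named here after its value was seen. Among genes of U2 recruitment and the 3 prime splice site, the helicase Dhx15 rose by 0.56 (adjusted p = 0.0371).

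Snrpb2, the U2 B'' protein, was the 1 call among 32 tested Sm and snRNP genes, at 0.91 (adjusted p = 0.0337). The step-2 factor Slu7 was the 1 call among 24 Prp19 and catalytic step genes, at 0.61 (adjusted p = 0.0464). SR-related proteins split, with Rsrc2 up by 0.81 (adjusted p = 0.0309) and Scaf1 at -1.10 (adjusted p = 0.0278), lower in HS. None of the 8 tested SR protein kinases of the Clk, Srpk and Dyrk kind was called, nor any of 7 exon junction or 5 nonsense-mediated decay genes. The 173 genes were called in none of the other comparisons within a tissue.

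Calcitriol on the high salt diet was then compared with high salt alone in cortex. No member was called among 32, where 0.758% of all 7524 genes were. At an unadjusted p under 0.05, 8 members were lower in CAL and 0 higher, where 8.98% of all genes were lower and 7.22% higher. The groups overlapped for each of the 32 members, and did not for 4.17% of all genes. CAL and HS share no library with each other, but both comparisons of this tissue use the same HS libraries, so the values are given side by side without a test of their likeness.

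Of the 5 members that rose with salt, 4 had the lowest p-values here. Srsf10 was at -0.77 (SE 0.25, adjusted p = 0.131), Hnrnph1 at -0.62 (SE 0.20, adjusted p = 0.136), Srsf2 at -0.47 (SE 0.16, adjusted p = 0.150) and Hnrnpk at -0.35 (SE 0.12, adjusted p = 0.158). Srsf1 was level between the groups, at 124 ± 23.7 CPM in HS and 125 ± 22.1 in CAL. Next came Hnrnpu, a nuclear scaffold hnRNP, at -0.37, and Hnrnpll at -0.51, both with an adjusted p of 0.191.

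Against controls, CAL cortex had 0 of 7524 genes called and so no member, with 11.9% of all genes under an unadjusted p of 0.05. At that p, 3 members were higher (6.54% of all genes) and 1, Sf3b2, lower (5.32%). Srsf1 was closest among members, at 0.70 (SE 0.15, unadjusted p = 0.000106, adjusted p = 0.0832), and its CAL and NC libraries did not overlap, as 1.06% of all genes' did not. It was called by DESeq2 (adjusted p = 0.0117) and without CAL replicate 6 (adjusted p = 0.0299). Sf3b6, the SF3b subunit that touches the branch adenosine, was at 0.51 (adjusted p = 0.265), and Srsf3, an SR protein of RNA export, was at 0.32 (adjusted p = 0.321). Sf3b1 was at -0.09 and Hnrnpa1 at 0.22.

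**Figure D3:**
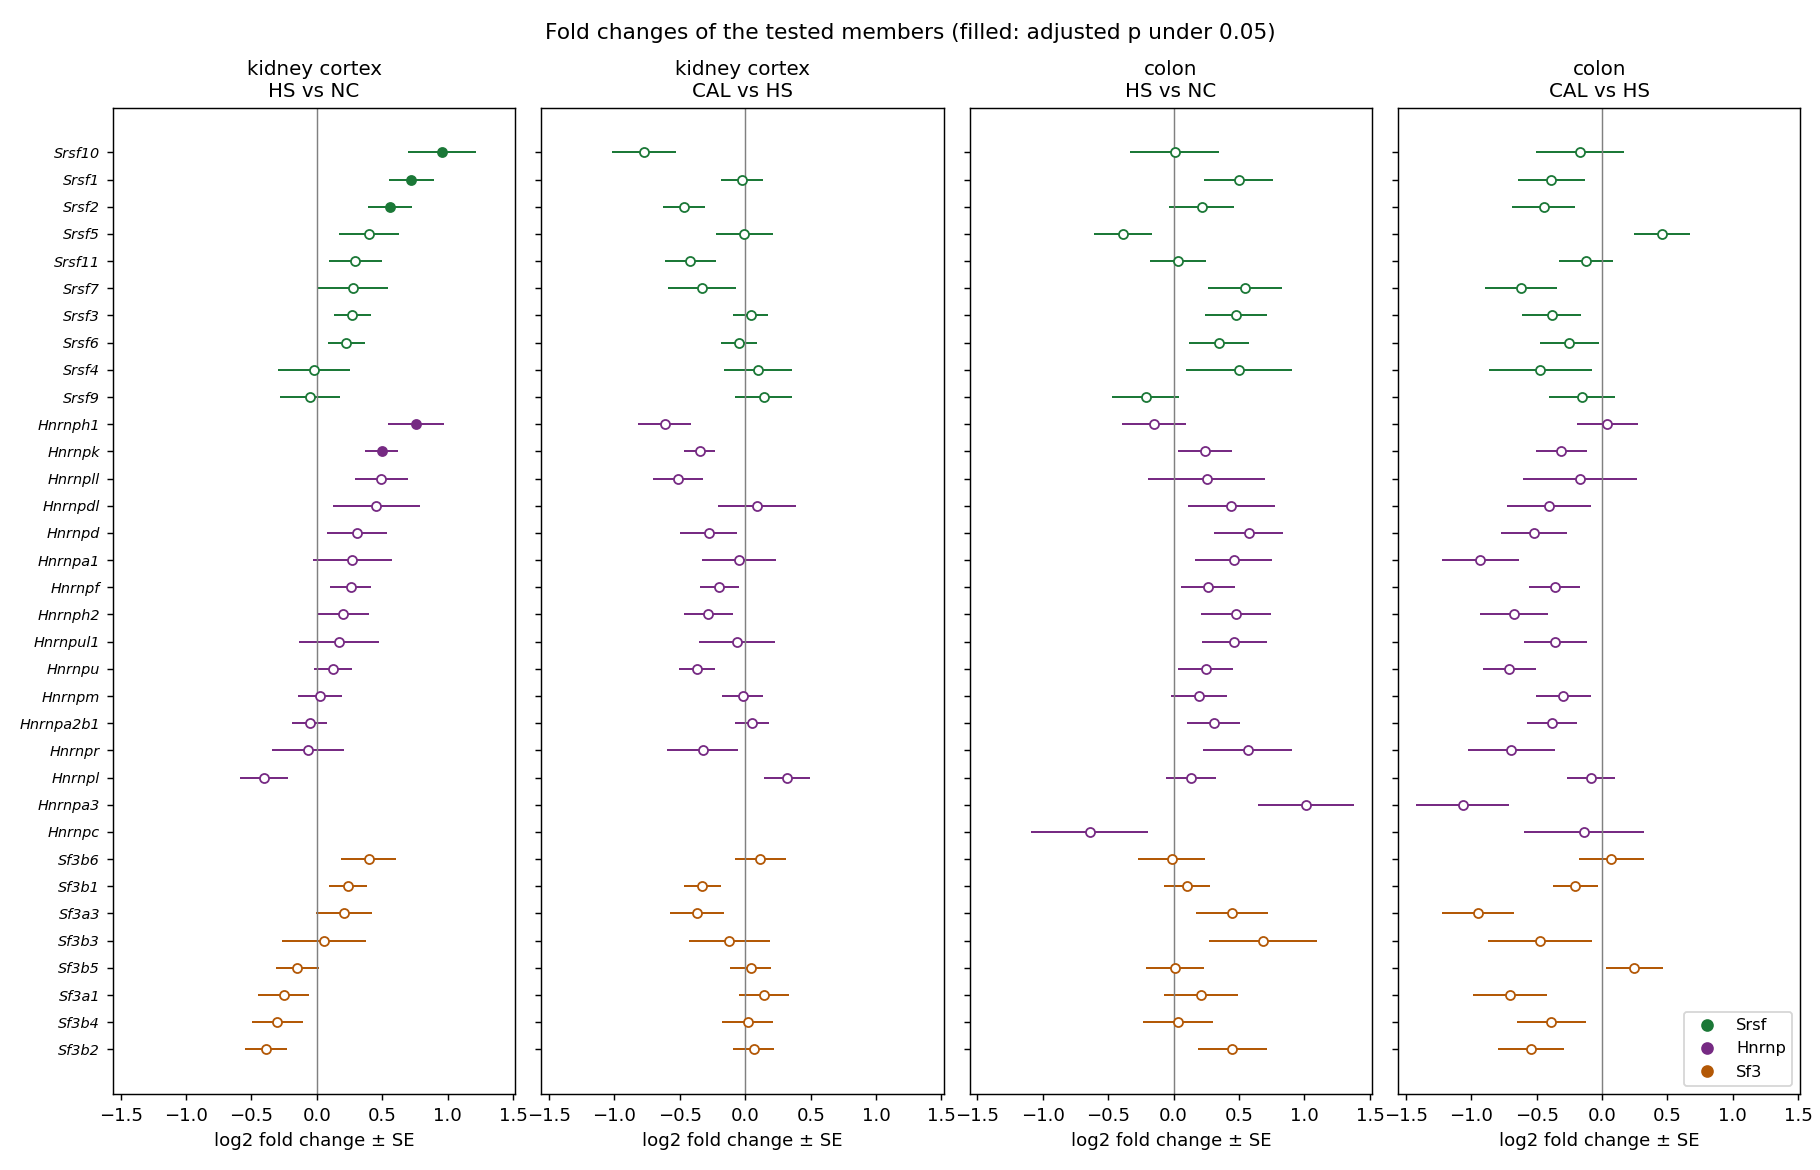
log2 fold change ± SE of each tested member, by family, for HS vs NC and CAL vs HS in kidney cortex and colon, with filled points for an adjusted p under 0.05. The 5 filled points are all in cortex HS vs NC, and in colon most members lie above 0 for HS vs NC and below 0 for CAL vs HS without passing the threshold. Both comparisons of a tissue share the same HS libraries, so their opposite directions are not independent.

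In the colon no member was called for high salt against control. None of the 7217 genes tested was called either (0%), with 8.51% under an unadjusted p of 0.05. At that p, 2 members were higher, where 5.36% of all genes were, and 0 lower, where 3.15% were. The groups overlapped for every tested member, and did not for 1.4% of all genes. Fold changes were positive for 29 of 34 members, where 54.2% of all genes' were, and their median was 0.26 beside 0.04. Hnrnpa3, a relative of Hnrnpa1, was at 12.9, 17.3, 30.3, 9.21 and 25 CPM in NC and at 28.4, 38.2, 63.6, 22.3 and 36.4 in HS, a log2 fold change of 1.01 (SE 0.37, adjusted p = 0.456). The groups overlapped, and HS replicate 3 was highest. Hnrnpd (AUF1), which binds AU-rich RNA, was at 0.57 (adjusted p = 0.564) and Srsf3 at 0.48 (adjusted p = 0.586).

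Srsf1 in colon was at 99.6, 104, 135, 72.4 and 117 CPM in NC and at 137, 114, 263, 77.0 and 152 in HS, a difference of 0.50 (SE 0.27, adjusted p = 0.633). Its HS spread came mostly from replicate 3. Srsf10, at 0.01, and Hnrnph1, at -0.15, were near 0, while Hnrnpk was at 0.24 and Srsf2 at 0.22. Sf3b1 was at 0.10 and Hnrnpa1 at 0.46.

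HS replicate 3 was high for the members as a whole, with a summed level of 5402 CPM, where the other 4 HS libraries had 3563 to 3970 and NC had 3233 to 3817. Beside its leukocyte level it had the highest proliferation marker sum, 1609 CPM, where other colon HS libraries had 617 to 907 and NC 374 to 788. Without replicate 3 the members' median fell from 0.26 to 0.17, and without replicates 3 and 4 together it was 0.09 with 25 of 34 positive. Erythrocyte genes were lower in colon HS by their summed level, at 77.4 to 397 CPM in HS and 480 to 2645 in NC without overlap, with 0 of 3 tested called. Without haemoglobin genes the members' median was again 0.26. Taking out rows leaves the mix of cells in each library unchanged. The part of erythrocytes, leukocytes and proliferation in the remaining difference was not tested.

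For calcitriol against high salt in colon, 0 of 34 members were called, where 0.0139% of all genes were, a single gene. Members were mostly lower in CAL: 30 of 34 fold changes were negative and 4 positive, where 47.0% of all genes' were positive, and the median was -0.38 beside -0.03. This comparison used the same HS libraries as high salt against control in colon, so opposite signs in both are not independent. At an unadjusted p under 0.05, 9 members were lower and 1 higher, where 6.53% and 3.98% of all genes were. The 1 higher member was Srsf5, an SR protein, at 0.46 (adjusted p = 0.456).

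Hnrnpu was at 306, 222, 445, 263 and 291 CPM in HS and ran from 135 to 257 in CAL with a median of 184. Only HS replicate 2 lay within the CAL range. Its log2 fold change was -0.71 (SE 0.20, adjusted p = 0.345). Sf3a3, the SF3a subunit that joins the complex to U2, was at 60.2, 56.1, 88.5, 99.3 and 66.2 in HS and ran from 22.2 to 62.2 in CAL with a median of 38.9, a difference of -0.95 (SE 0.27, adjusted p = 0.345).

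Hnrnpa1 was at 38.6, 98.7, 91.2, 72.0 and 59.6 CPM in colon HS and ran from 22.2 to 57.9 in CAL with a median of 36.4. That was a log2 fold change of -0.93 (SE 0.29, adjusted p = 0.345), with HS replicate 1 inside the CAL range. Hnrnpa3 was the 1 member whose groups did not overlap, at 22.3 to 63.6 CPM in HS and 11.6 to 21.9 in CAL, against 0.527% of all genes. It was at -1.06 (SE 0.36, adjusted p = 0.345), from 3 to 25 reads per library. Srsf1 was at -0.39 and Sf3b1 at -0.20.

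Summed over all members, colon HS libraries (3563 to 5402 CPM) lay above all CAL libraries (2785 to 3431), and the Hnrnp sums did too, at 1761 to 2673 against 1259 to 1661. Leaving out HS replicate 3 left HS at 3563 to 3970, still above CAL. The members' median was -0.22 without it and -0.18 without replicates 3 and 4 together, with 26 of 34 negative. Marker sets of several cell types differed between these groups too, with 0 genes called in each. Leukocyte markers averaged 8649 CPM in HS and 2492 in CAL, with 11 of 12 tested lower in CAL, and the HS range of 1195 to 18686 covered the CAL range of 1528 to 4400. Smooth muscle markers averaged 10372 CPM in HS and 5066 in CAL, all 10 lower by fold change, and proliferation markers 986 and 598, with 13 of 13 lower. Enteric neuron and glia markers averaged 108 and 56.8 CPM, with both tested genes lower, while erythrocyte genes were higher in CAL, at 1138 against 251 CPM, with 3 of 3 tested higher. Every one of these sums overlapped between the groups. Without haemoglobin genes the members' median was again -0.38, but taking out rows leaves the mix of cells in each library unchanged. The part of these marker sets, erythrocyte genes included, in the result was not tested.

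CAL against control in colon called 0 of 7217 genes and no member, with 3.85% of all genes under an unadjusted p of 0.05. At that p 1 member was lower (2.26% of all genes) and 0 higher (1.59%), and the groups overlapped for each of the 34 (0.679% of all genes did not). The median over members was -0.08. Lowest in p were Hnrnpu at -0.46, Hnrnpc, which binds poly-U tracts, at -0.78, and Sf3a3 at -0.50, each with an adjusted p of 1. Srsf1 was at 0.11, Hnrnpa1 at -0.47 and Sf3b1 at -0.10.

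The difference between tissues was tested in 1 fit over all 31 libraries, which also gave the comparison of control tissues below. The labels do not say whether cortex and colon libraries came from the same rats. The fit took all libraries as independent, so its p-values leave any such pairing out. For high salt against control, colon minus cortex, 0 of 34 members were called, where 0.0219% of the 9128 genes in that fit were. At an unadjusted p under 0.05 there were 13.4% of all genes, with 2 members higher (7.77% of all genes) and 3 lower (5.66%). Hnrnph1 was lowest in p, at -0.91 (SE 0.33, adjusted p = 0.228), then Sf3b2 at 0.86 (SE 0.32, adjusted p = 0.235) and Srsf5 at -0.77 (SE 0.32, adjusted p = 0.279). So the cortex calls are not shown to be particular to cortex. Beside Hnrnph1, the difference for the members called there was largest for Srsf10, at -0.92 (SE 0.43, adjusted p = 0.354). It was -0.32 for Srsf2, -0.23 for Hnrnpk and -0.19 for Srsf1 (SE 0.33, adjusted p = 0.848).

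For calcitriol against high salt, colon minus cortex, 0 of 34 members and 0% of genes were called, with 9.62% of genes under an unadjusted p of 0.05. At that p 1 member was higher (3.37% of all genes) and 2 lower (6.24%). Sf3a1, an SF3a subunit, was at -0.85 (adjusted p = 0.400), Hnrnpa1 at -0.89 (adjusted p = 0.475) and Hnrnph1 at 0.67 (adjusted p = 0.498). Srsf1 was at -0.38 and Sf3b1 at 0.13. Their standard errors ran from 0.22 to 0.41.

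Between the control tissues, 7 of 34 members were called, all higher in colon, where 58.8% of the 9128 genes were called, 30.4% higher in colon and 28.4% lower. Hnrnph1 was 2.1-fold higher, at 107 ± 37.4 CPM in colon and 50.3 ± 11.4 in cortex (SD, n = 5 each, adjusted p = 0.000122 by edgeR). Hnrnpa1 was 1.90-fold higher, at 49.2 ± 11.3 against 25.9 ± 10.7 (adjusted p = 0.00630 by edgeR), with overlapping groups.

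Srsf7, an SR protein of splicing and polyadenylation, was at 70.1 ± 7.79 CPM in control colon and 36.2 ± 12.9 in cortex (SD, n = 5 each), a 1.87-fold difference (adjusted p = 0.00580 by edgeR). Srsf5 was at 102 ± 22.8 and 54.3 ± 10.6 (1.86-fold, adjusted p = 0.000551 by edgeR). Hnrnpf, a relative of Hnrnph1, and Srsf11 were higher by 0.64 and 0.61 on the log2 scale. Sf3b1 was higher by 0.46 (adjusted p = 0.00977), a call that was lost without colon NC replicate 4 (adjusted p = 0.0637) and with no filter on low counts (adjusted p = 0.0529). Srsf1 was at 100.4 and 77.7 CPM and was not called. Among the other splicing genes 35 of 141 were higher in colon and 8 lower, led by the epithelial regulator Esrp1 at 3.63.

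**Figure D4:**
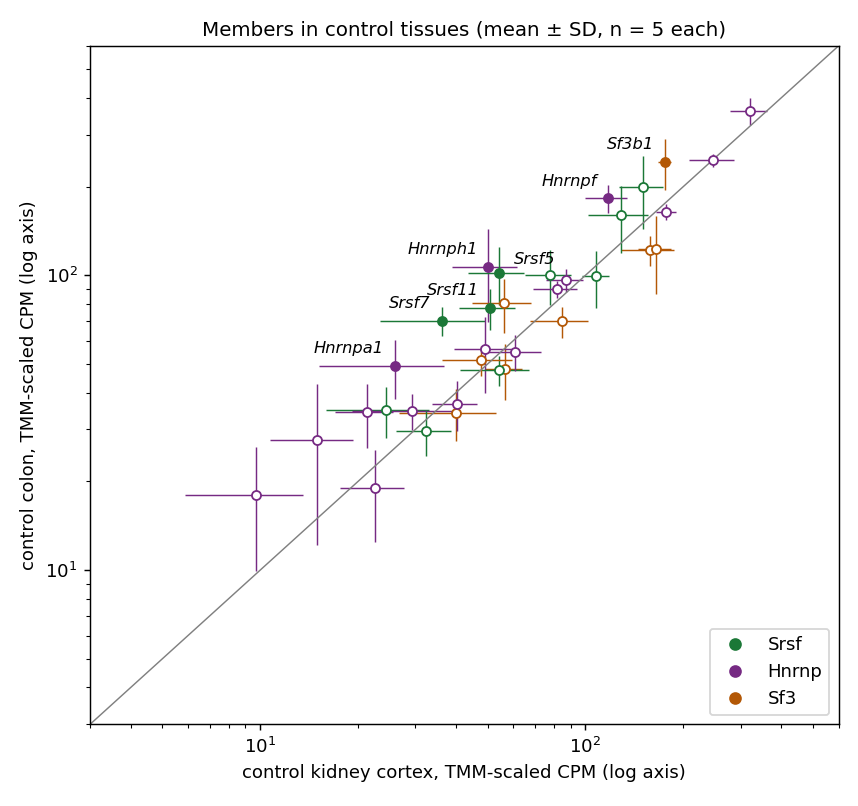
Mean TMM-scaled CPM ± SD of each of the 34 members in the fit over both tissues, in control kidney cortex (horizontal log axis) and control colon (vertical log axis), n = 5 each, with the line of equal levels. The 7 filled and named genes have an adjusted p under 0.05, and all lie above the line.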

How the data were processed

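Raw gene counts were deposited as 1 table by the authors. Trimming with Trimmomatic 0.39, alignment to Rnor_6.0 with HISAT2 2.1.0, counting with featureCounts 1.6.5 and read checks with FastQC 0.11.9 are named in the submitters' processing notes, with no parameters. Strand setting, annotation release and handling of multiply mapped reads are not given in the sources used here. Counts were tested in R 4.3.3 with edgeR 4.0.16 (TMM, quasi-likelihood, filterByExpr with a minimum count of 10 and total of 15), 3 groups per tissue, and all 6 groups for comparisons between tissues. An adjusted p under 0.05 was a call. Standard errors are the fold change over the root of F. The scripts were tested on simulated data.

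The members and lists were chosen with earlier results of these data known. Named members were those past the threshold, otherwise the 3 with the smallest p, with Srsf1, Hnrnpa1 and Sf3b1 always given, and up to 3 genes of each other list. Fold changes of Srsf10, Hnrnpk, Srsf2, Hnrnph1, Hnrnpll, Sf3b2 and the colon members outside that rule were added after their values were seen. Of 316 list entries 297 matched a row, 2 through a synonym. No 2 libraries were identical. Alternatives are in the closing section, with DESeq2 1.42.0 and limma 3.58.1. The result of 1 listed gene is not reported here.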

Additional observations from a re-analysis of the deposited data

Results flagged for a closer look

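Library values of 11 members and 3 family sums were checked in each group, 84 groups in all, for a highest or lowest library with a gap to its neighbour that was large for the group's range. Chance flags about 1 group in 20, and 5 were found. In cortex, Hnrnph1 stood at 84.5 CPM in CAL replicate 2, next to 58.1 in the nearest CAL library, and at 29.6 CPM in NC replicate 4, next to 52.5. Srsf5 was at 95.3 CPM in cortex CAL replicate 5, next to 71.0. In colon HS replicate 3 the summed Srsf level was 1678 CPM, next to 1089.6, and the summed Hnrnp level was 2673 CPM, next to 2017. This is also the library with the highest leukocyte and proliferation marker sums of its group.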

How the results depend on the processing

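Members called in cortex HS vs NC numbered 5, and 1 to 5 with a library left out, 1 being without HS replicate 2. They numbered 2 after thinning every library to the shallowest, and 4 with a filter of 1 CPM in at least 4 libraries. Srsf1 was called in all 25 alternatives. Members called in cortex CAL vs NC numbered 0, but 1, always Srsf1, with DESeq2, with no filter, after thinning and with the replicate block, and 0 to 1 with a library left out. In control colon against cortex 7 members were called, 7 to 11 with a library left out and 12 without colon HS replicates 3 and 4 together. Of those 12, 11 were higher in colon and 1 lower. A single member was also called lower without cortex NC replicate 4 and without colon NC replicate 1. No alternative called a member in the other comparisons.

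Genes called in cortex HS vs NC ranged from 324 to 961 over left-out libraries and were 406 after thinning. In cortex CAL vs HS 57 genes became 105 with DESeq2, 128 with no filter, 30 with only the compared groups, 33 without haemoglobin genes, 18 after thinning and 2 to 80 with a library left out. In cortex CAL vs NC, 0 became 28 with DESeq2, 83 with no filter, 7 with the 1 CPM filter, 2 with robust moderation, 8 after thinning and 0 to 40. In colon HS vs NC, 0 became 15 with DESeq2, 59 with no filter, and 1 with robust moderation; in colon CAL vs HS, 1 became 11, 66 and 2, and 5 with the 1 CPM filter. Left-out libraries gave 0 to 1 and 0 to 14. Tissue differences with no filter called 20 genes for HS vs NC and 8 for CAL vs HS, and 0 to 93 and 0 to 54 with a library left out. The cause was not tested.

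Pairing by replicate number was checked between groups within a tissue, and not between cortex and colon. The correlations of same-numbered libraries were over 0.1 in 0 of 13 cortex pairs and 4 of 15 colon pairs, the highest at 0.241. Libraries with different numbers were not compared as a reference, so the check does not settle pairing in either tissue. With the replicate block, 5 members were called in cortex HS vs NC and 1 in CAL vs NC, and 22 and 42 genes in cortex CAL vs HS and CAL vs NC.

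Of 1548 alternative values of named members 16 changed sign, all uncalled and near 0. Srsf1 in cortex CAL vs HS was 0.019 with the replicate block, 0.0902 after thinning, and -0.105 to 0.0627 with a library left out. Hnrnpa1 there ran from -0.197 to 0.0664 with a library left out. In colon CAL vs NC Srsf1 was -0.0468 after thinning and ran from -0.00523 to 0.208, and Sf3b1 from -0.178 to 0.0089, with a library left out. For HS vs NC, colon minus cortex, left-out libraries gave -0.0534 to 0.383 for Hnrnpa1 and -0.262 to 0.0079 for Sf3b1, and for CAL vs HS -0.0163 to 0.236 for Sf3b1. Low depth limits the members with few reads: Srsf10 had as few as 8 counts in a cortex library.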
